A study of Mus musculus with 4 samples.

Results

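The genes for the proteins of the cytosolic ribosome were examined in basal and luminal cells of the developing mouse prostate. They were taken as the protein-coding rows whose GRCm38 symbol has the form of a large subunit gene (Rpl and a number, Rplp0 to Rplp2) or a small subunit gene (Rps and a number, Rpsa). This rule gave 83 of the 49671 rows of the table, of which 51 belong to the large and 32 to the small subunit. A further 6 rows with such a symbol are annotated as pseudogenes and were not members. The filter on low values was passed by 80 members (48 large, 32 small) and by 18737 of all rows. GENCODE gene models for GRCm38 supplied the symbols of 49412 rows.

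The ribosome joins a small subunit, which reads the mRNA, to a large subunit, which forms peptide bonds and releases the growing chain through an exit tunnel. Each subunit contains 1 copy of most of its proteins, so cells make these proteins in matched amounts, in part through a pyrimidine tract at the 5′ end of their mRNAs (a TOP sequence) that ties their translation to nutrient and growth factor signalling through mTOR. Ribosomal protein mRNAs are short, abundant and often copied back into the genome, which has left the mouse with a large number of processed pseudogenes that resemble them closely.

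Cells came from untreated CD-1 mice at postnatal day 10 to 13. Ventral prostate lobes of several mice were dissected and the last 100 µm of the ducts, the tips, were taken. EpCAM-high cells free of CD45, CD31 and CD140a, which mark blood, endothelial and stromal cells, were sorted into a CD49f-high basal group and a CD49f-low luminal group, with 2 libraries in each (basal replicates 1 and 3, luminal replicates 3 and 2). Basal cells of this age can give rise to luminal cells, and the comparison asks how expression differs between the source and the product of that transition. The sources used here do not state that the libraries came from separate animals, so p-values measure only the spread between libraries, which may be technical.

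A single read was worth 6.26 and 6.49 units in the basal libraries, 19.4 in luminal replicate 3 and 31.2 in luminal replicate 2, so the luminal libraries rest on fewer reads and depth cannot be told apart from cell type. All 4 basal markers (Krt5, Krt14, Trp63, Itga6) were called lower in luminal cells by limma. The 4 luminal markers (Krt8, Krt18, Cd24a, Hoxb13) had positive fold changes with 0 called by limma and 2 by edgeR. Markers of the cell types removed in the sort were detected. The 6 stromal markers summed to 76825 and 194372 in the basal libraries and to 69684 and 216238 in luminal replicates 3 and 2, with 0 of the 6 at 0 in all libraries. The 3 endothelial markers summed to between 387 and 1347 and the 3 immune markers to between 775 and 2611, with Ptprc at 0 in both luminal libraries. The 9 genes of the dissociation stress list summed to 339122 and 180477 in the basal and 124462 and 193675 in the luminal libraries. The part of these in the results below was not tested.

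The sequences show how alike the rows of this table can be. Rpl12 (chr2:32961559-32965345, plus strand), a protein at the base of the ribosomal stalk, is shown because its row had one of the largest fold changes and its most counted pseudogene copy, Gm10275 (chr10:29698746-29699380, minus strand), was 100.0% identical over the 495 coding bases. The first 60 coding bases of each, from GENCODE transcripts, hold no difference.
Rpl12: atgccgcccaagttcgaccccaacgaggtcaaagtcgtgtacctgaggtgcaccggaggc
Gm10275: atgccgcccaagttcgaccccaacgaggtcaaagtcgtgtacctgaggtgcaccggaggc
Rpl3 (chr15:80077791-80091868, minus strand), a core protein near the peptidyl transferase centre, differed from its copy Rpl3-ps1 (chrX:13202571-13203780, plus strand) at 2 of 1209 coding bases, 1 of which lies in the first 60 and is in capitals.
Rpl3: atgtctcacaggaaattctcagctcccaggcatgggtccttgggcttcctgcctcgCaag
Rpl3-ps1: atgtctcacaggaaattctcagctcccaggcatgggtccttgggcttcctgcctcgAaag
Rps27 and Rps27l, a pair of genes that both encode functional small subunit proteins, are shown because their coding sequences differ along their length. They were identical at 76.2% of 252 coding bases, and capitals mark the bases that differ in the first 60.
Rps27: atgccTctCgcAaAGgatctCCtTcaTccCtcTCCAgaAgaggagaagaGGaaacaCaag
Rps27l: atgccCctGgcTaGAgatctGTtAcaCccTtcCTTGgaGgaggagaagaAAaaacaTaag

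The start of the transcript carries the other shared sequence. RefSeq start windows (GRCm38.p6, 250 bases before and 50 after the start) were matched by symbol for 63 of the 83 members. A run of at least 5 pyrimidines reaching within 5 bases of the annotated start stood in 35 of these 63 (55.6%), against 36.7% of 27025 genes. The tracts were 5 to 21 bases long, with a median of 10. Annotated starts can lie off the true start, so a missing tract says only that these letters are not there. The following 30-base windows, from 10 bases before the start, show the tract in capitals for 4 members, chosen because they bear a clear tract and 3 of them are named for their fold change below.
Rpl28 (chr7:4792955-4792984, plus strand): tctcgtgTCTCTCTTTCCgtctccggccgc
Rps6 (chr4:86857348-86857377, minus strand): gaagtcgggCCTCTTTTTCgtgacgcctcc
Rpl12 (chr2:32961702-32961731, plus strand): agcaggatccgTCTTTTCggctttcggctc
Rps27 (chr3:90213629-90213658, minus strand): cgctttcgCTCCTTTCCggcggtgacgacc
The ETS family motif CCGGAAG, searched on both strands, stood in 41.3% of the members' windows against 9.93% of all, and the Sp1 motif GGGCGG in 61.9% against 38.2%. The YY1 motif AAGATGGC stood in 9.52% against 3.19%, and TATAAA, searched on the sense strand, in 9.52% against 9.77%. These matches describe letters in a window and not bound sites. The median log2 fold change was -0.032 over 34 tested members with a tract and -0.12 over 26 without.

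The median fold change of ribosomal protein genes lay near that of all genes when all 4 libraries were used. The median log2 fold change, luminal over basal, was -0.055 over the 80 members, against -0.095 over all 18737 genes. It was -0.022 over the large and -0.18 over the small subunit. Rescaling to nuclear protein-coding genes turned it to 0.25, beside 0.21 for all genes, and quantile normalization to 0.14, beside -0.049, so its sign rests on the scaling. Without luminal replicate 3 it was -0.17 while that of all genes was 0.16. The middle 50% of members lay between -0.31 and 0.26, against -0.81 to 0.65 for all genes. Of the members 33 had a positive and 47 a negative fold change.

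No member was called by limma, edgeR or DESeq2. limma (log2 of the normalized value plus 1, Benjamini-Hochberg adjusted p under 0.05 over all genes) called 0 of 80 members, against 0.694% of all genes, and edgeR and DESeq2 on recovered reads also called 0, against 5.06% and 4.37%. At an unadjusted p under 0.05, limma gave 4 members (Rpl12, Rpl7 and Rps4x among them), against 18.5% of all genes. edgeR gave 1 (Rpl12), against 19.1%, and DESeq2 gave 0, against 11.2%. The median standard error of a member's log2 fold change was 0.31. On simulated libraries with the same dispersion for every gene, limma called none of the changed genes, and edgeR and DESeq2 called a minority. Whether that dispersion matches the members was not tested. With 2 libraries in each group the absence of calls carries little information and does not show equal expression. A ratio of group averages of 2 or more was reached by 0 of 80 members, against 18.3% of all genes. After rescaling to nuclear protein-coding genes it was reached by 7 members. The share of all genes under that rescaling was not counted, while their median log2 fold change rose from -0.095 to 0.21. A ratio of 0.5 or less was reached by 1 (Rpl29), against 16.3%. These shares of all genes include many with few reads. Among genes averaging 100 or more, 0 of 79 members reached either ratio, against 11.4% and 12.8%. Both luminal libraries lay below both basal libraries in 22 of 80 members, against 27.3% of all genes, and above them in 14, against 23.6%.

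**Figure D1:**
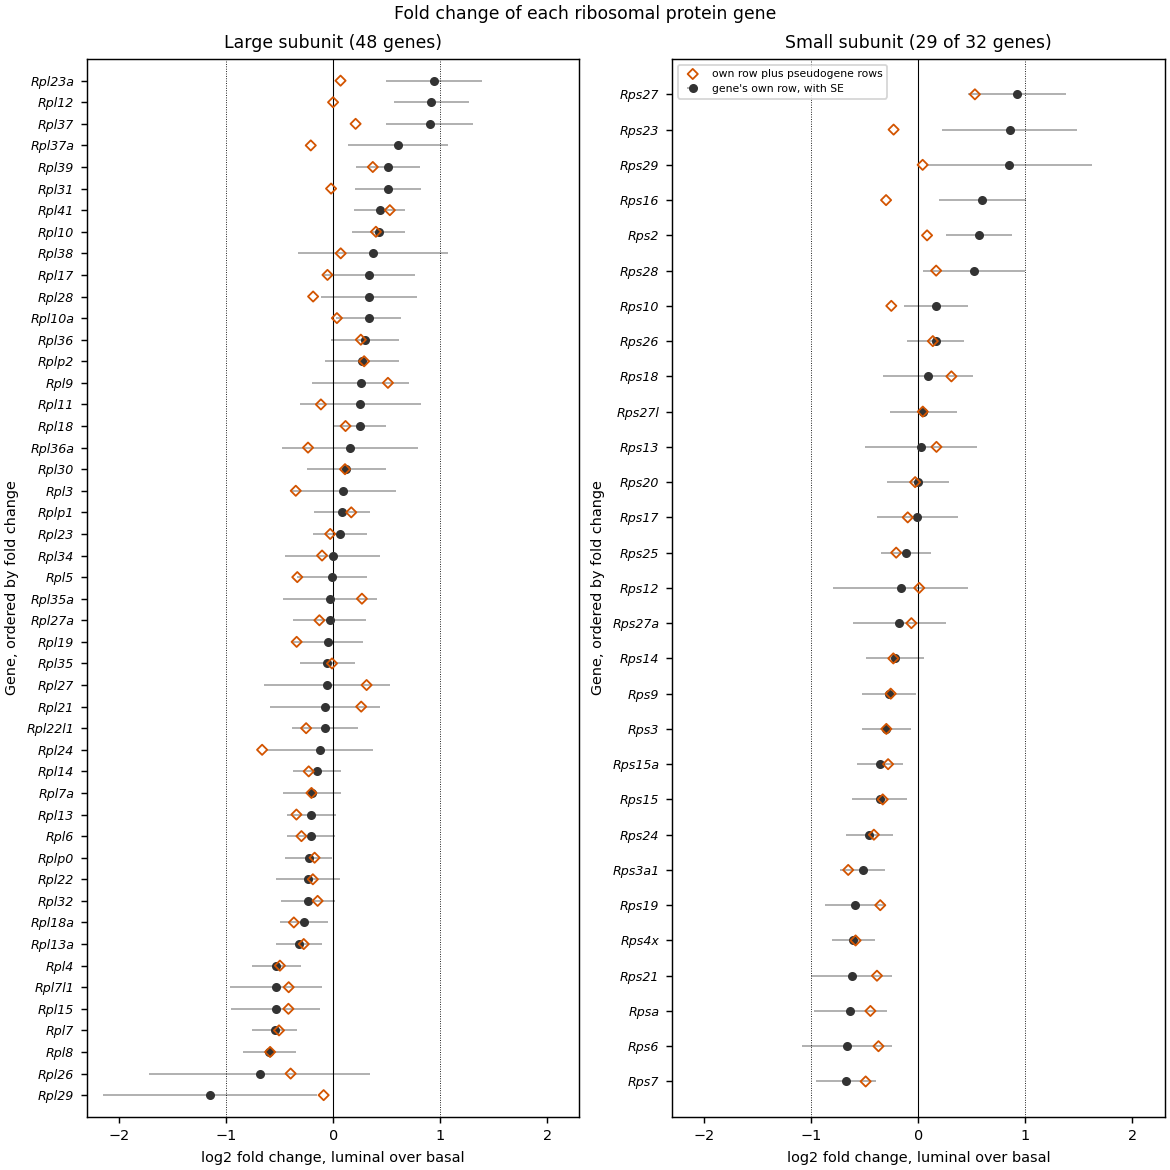
Fold change of each ribosomal protein gene, luminal over basal on the log2 scale, for the large (48 genes) and small (29 of 32 genes shown) subunit. Filled points with bars are the gene's own row with its standard error from limma, open diamonds are the own row summed with the rows of its pseudogene copies, and dotted lines mark a 2-fold change; filled points run from -1.15 (Rpl29) to 0.94 (Rpl23a).

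Summed over members, the signal was lower in the luminal libraries. It made up 1.02% and 1.01% of all signal in the basal libraries, and 0.945% (replicate 3) and 0.793% (replicate 2) in the luminal ones, with group means of 1.02% ± 0.00568 and 0.869% ± 0.108 (SD, n = 2). The groups did not overlap, but the luminal libraries differed from each other more than luminal replicate 3 did from the basal pair. Nuclear protein-coding genes took a smaller share of the luminal libraries (57.3% and 64.2%) than of the basal ones (76.0% and 74.7%), and genes of the mitochondrial genome a larger one (8.64% and 6.32%, against 2.96% and 4.41%). The part of these shares in the lower sum was not tested. As a share of that signal the members made up 1.35% and 1.36% in basal and 1.65% and 1.23% in luminal replicates 3 and 2, and the groups overlapped. The order of the groups thus depended on the denominator. The ratio of large to small subunit signal was 1.24 in each basal library and 1.30 and 1.34 in luminal replicates 3 and 2. In bulk samples fewer cells of a type and less RNA per cell cannot be told apart.

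**Figure D2:**
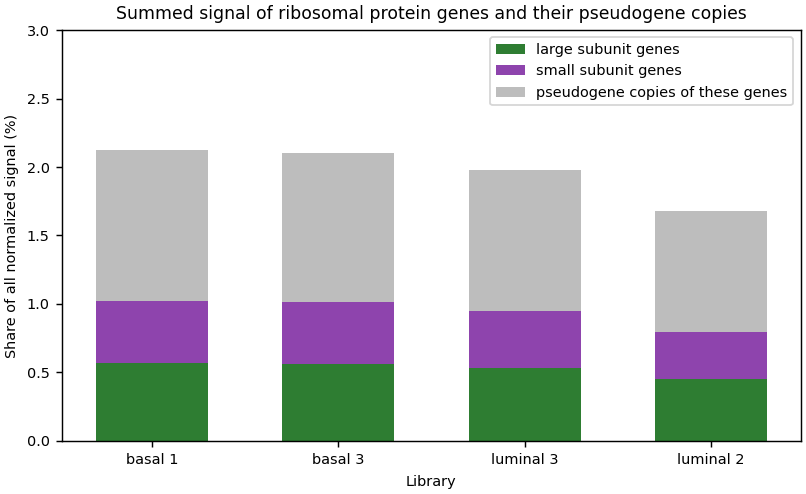
Share of all normalized signal, in percent, taken in each library by large subunit genes, small subunit genes and the pseudogene copies of both, stacked. The genes' own rows sum to 0.793% to 1.02% and the pseudogene rows add 0.888% to 1.10%.

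The members' levels spanned a wide range although their products are used in matched amounts. Among the 80 members that passed the filter, normalized values per kb of exon, averaged over the 4 libraries, ran from 70.2 (Rpl29) to 11927 (Rpl32), with medians of 368 over the large and 752 over the small subunit. The order of the genes was alike in all libraries. Across the 80 genes, which are not independent replicates, Pearson correlations of log2 values between pairs of libraries were 0.942 to 0.978, and the correlation between the luminal libraries (0.957) was lower than that of basal replicate 3 with luminal replicate 3 (0.978).

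**Figure D3:**
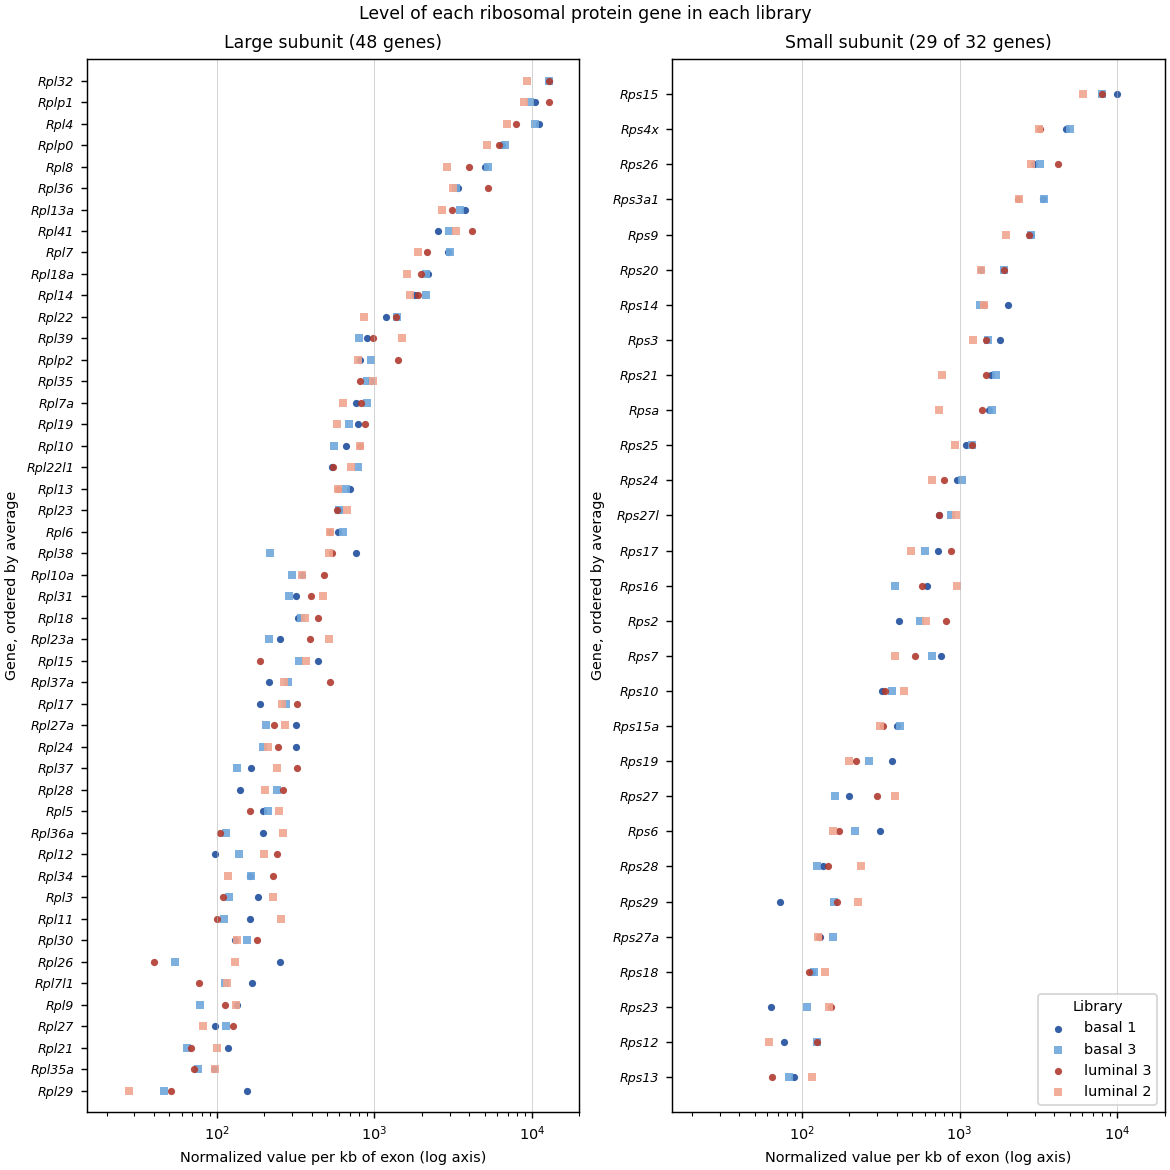
Normalized value per kb of exon of each ribosomal protein gene in each library, on a log axis, with genes ordered by their average within each subunit (48 large and 29 of 32 small subunit genes shown). Blue points are basal and red points luminal libraries; averages range from 70.2 for Rpl29 to 11927 for Rpl32.

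The most abundant large subunit genes per kb were Rpl32, Rplp1 and Rpl4. Rpl32, a surface protein of the large subunit, had normalized values of 12275 (replicate 1) and 12420 (replicate 3) in basal cells, and 12334 (replicate 3) and 8913 (replicate 2) in luminal cells. The same order of libraries is kept for every gene below. Rplp1, an acidic stalk protein that recruits translation factors, had 5198 and 4839 in basal and 6390 and 4425 in luminal cells. The groups overlapped for both. Rpl4, which lines the exit tunnel with an internal loop, had 22076 and 21059 in basal and 15838 and 14023 in luminal cells, and its groups did not overlap. Its log2 fold change was -0.53 ± 0.23 (SE; limma adjusted p = 0.296). The lowest limma adjusted p of any member was 0.204, for Rps4x.

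Rps15 and Rps4x were among the 3 most abundant small subunit genes per kb. Rps15, a protein of the small subunit head needed for export of its precursor, had 6306 and 5028 in basal and 5054 and 3802 in luminal cells. Its groups overlapped. Rps4x, the X-linked gene of a small subunit protein, had 7778 and 8133 in basal and 5267 and 5173 in luminal cells, a gap wider than the spread within either group. Its log2 fold change of -0.61 ± 0.20 gave a limma adjusted p of 0.204.

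The 5 members with the largest positive fold change among those averaging 100 or more were Rpl23a, Rps27, Rpl12, Rpl37 and Rps23. Each had low values in all libraries. Rpl23a, which sits at the tunnel exit and binds the signal recognition particle, had 213 and 182 in basal and 329 and 436 in luminal cells, from 14 to 34 reads a library (log2 fold change 0.94 ± 0.44, limma adjusted p = 0.336). Rps27, a small subunit protein with a zinc finger, had 207 and 169 in basal and 310 and 405 in luminal cells (0.92 ± 0.46, limma adjusted p = 0.359). Rpl12 had 351 and 500 in basal and 871 and 717 in luminal cells (0.91 ± 0.35, limma adjusted p = 0.255). In all of them both luminal libraries lay above both basal libraries. Rpl37, a large subunit zinc finger protein, had 276 and 227 in basal and 542 and 405 in luminal cells (0.90 ± 0.41). Rps23, which lies at the decoding centre and helps set accuracy, had 81 and 136 in basal and 194 and 187 in luminal cells, from 6 to 21 reads a library (0.85 ± 0.63). These last ones were also separated, and none of the 5 was called.

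The 5 members with the largest negative fold change at the same average were Rpl26, Rps7, Rps6, Rpsa and Rps21. Rpl26, a tunnel exit protein that can also bind the p53 mRNA, had 363 and 78 in basal and 58 and 187 in luminal cells, so its basal libraries differed more than its groups (-0.69 ± 1.04, limma adjusted p = 0.738). Rps7, a body protein of the small subunit, had 1534 and 1351 in basal and 1046 and 779 in luminal cells (-0.67 ± 0.28, limma adjusted p = 0.284). Rps6, the substrate of the S6 kinases downstream of mTOR, had 495 and 344 in basal and 271 and 249 in luminal cells (-0.67 ± 0.42). For Rps7 and Rps6 the groups did not overlap. Rpsa, a small subunit protein that doubles as a laminin receptor, had 4879 and 5060 in basal and 4376 and 2337 in luminal cells (-0.64 ± 0.34). Rps21, also of the small subunit, had 1290 and 1377 in basal and 1200 and 623 in luminal cells (-0.62 ± 0.38). In both the distance from basal cells came mainly from luminal replicate 2, the library with the fewest reads. Rpl29, below the average set for this list, had 175, 52, 58 and 31 in the order of basal 1, basal 3, luminal 3 and luminal 2, from 28, 8, 3 and 1 reads, and its groups overlapped.

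Pseudogene rows with matching sequence held as much signal as the genes themselves. Of the 50-base stretches of each member's coding sequence, all were also found in a transcript of another gene for 29 of the 80 tested members, at least 50% but not all for 39, and under 50% for 12. Pseudogenes with at least 1 such stretch numbered 899 in the table, each matching 1 member. Their summed value was 107.9%, 107.5%, 109.7% and 112.0% of the members' own sum in basal 1, basal 3, luminal 3 and luminal 2, so in every library the pseudogene rows held more than the genes. How reads that fit several places were counted is not given in the sources used here, and whether these pseudogene rows hold transcripts of the pseudogenes, reads of the parent genes or reads of surrounding genes was not tested.

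Rpl3 and Rpl10a had far lower values than a copy of each. Rpl3 had values of 582, 377, 349 and 717 on its own row in basal 1, basal 3, luminal 3 and luminal 2, while its copy Rpl3-ps1 had 10070, 9289, 7454 and 5796. Rpl10a, a protein of the L1 stalk, had 839, 734, 1162 and 841, and its copy Rpl10a-ps1 had 7158, 7464, 7880 and 6731. Rpl12 had 351 to 871 beside 4924 to 5632 for Gm10275, the copy with the identical coding sequence shown above. Rps3, a small subunit protein at the mRNA entry, had no pseudogene row. It had 8085 and 6782 in basal and 6603 and 5485 in luminal cells. Rpl10a and Rps3 were chosen after their values were seen.

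Level, fold change and the uniqueness of a row's sequence moved together. Members with under 50% of stretches shared had a median level of 3305 per kb, those with 50% or more but not all 780.0, and those with all stretches shared 214. The median log2 fold change of these 3 classes was -0.33, -0.078 and 0.25, but their median values also differed (5433, 1483 and 346). Over the 3531 genes of the table that averaged 1000 or more the median was -0.33, with 2462 negative, so the first class lay where abundant genes in general lay. The 41 members averaging 1000 or more had a median of -0.23 and the 39 below that 0.095, and sequence uniqueness and level were not told apart. In the first class 11 of 12 fold changes were negative and both luminal libraries lay below both basal ones in 6, against 27.3% of all genes, and above in 0, against 23.6%. In the last class 17 of 29 were positive. Both luminal libraries lay below both basal ones in 3 of the 29 (10.3%), against 27.3% of all genes. They lay above in 9 of the 29, against 23.6% of all genes. Summed over genes, the luminal signal was 77.4% of the basal signal in the first class and 116% in the last. Across the 80 members Spearman's rho between the share of stretches and the fold change was 0.43, -0.54 between that share and the level per kb, and -0.30 between the level per kb and the fold change. The points share libraries and depth, so these are descriptions.

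Summing each member with its pseudogene rows, an analysis added after the values were seen, brought the fold changes together. Their SD over members fell from 0.45 to 0.28 on the log2 scale and their range narrowed to -0.66 to 0.53. The median was -0.18 over the 80 members (-0.12 large, -0.23 small), against -0.10 over the 18352 genes then tested. Of the members 25 were positive and 55 negative, and the sign differed from that of the own row in 16, of which 12 went from positive to negative. limma called 0 of 80, against 0.714% of genes, and gave 3 at an unadjusted p under 0.05, against 18.6%. Both luminal libraries lay below both basal ones in 32 of 80, against 27.6% of genes, and above them in 9, against 23.4%.

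The 5 largest fold changes in each direction were all nearer 0 in the sums. They were picked as extremes of the own rows, several of them on few reads, so this is a description. Rpl12 with its copies had 6183 and 6389 in basal and 6293 and 6263 in luminal cells, so the log2 fold change of 0.91 became -0.0016 ± 0.20. Rpl23a with its copies had 2638 and 2589 in basal and 2904 and 2585 in luminal cells, and its fold change became 0.068. Rps23 went to -0.23 and Rpl37 to 0.21. Rps27, with 74.7% of its summed signal on its own row, went from 0.92 to 0.53. Of the negative ones, Rpl26 went to -0.40, Rps7 to -0.49, Rps6 to -0.37, Rpsa to -0.45 and Rps21 to -0.39. Genes with nearly all of their summed signal on the own row could hardly move: Rpl8 (99.8% on its own row) had -0.60 and then -0.59, and Rpl4 (91.5%) -0.53 and then -0.50. The largest negative value in the sums was that of Rpl24, an intersubunit bridge protein, with 3851 and 3793 in basal and 2827 and 2056 in luminal cells (-0.66 ± 0.25, limma adjusted p = 0.243). Rpl8 and Rpl24 were chosen after their values were seen.

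**Figure D4:**
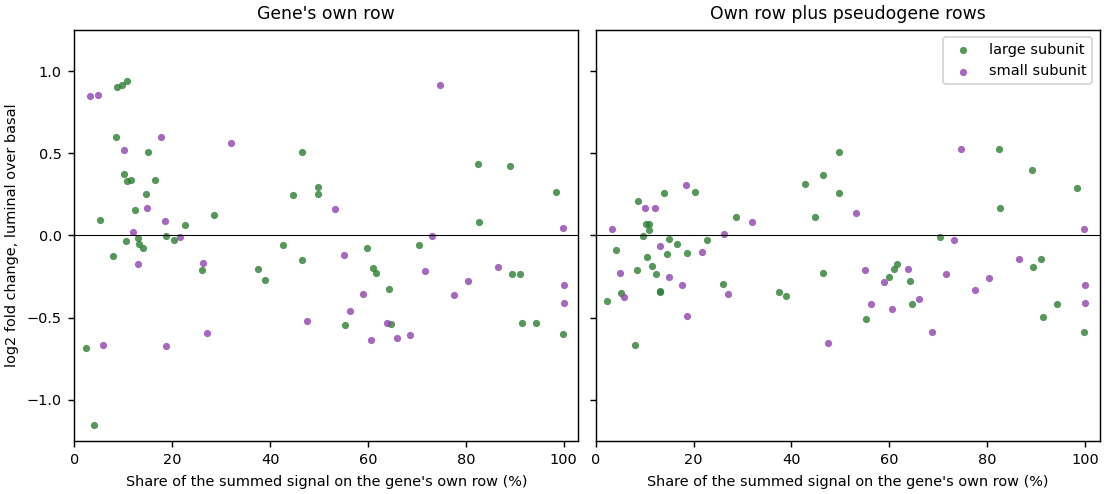
Log2 fold change of each member, luminal over basal, against the share of the summed signal of gene and pseudogene rows that stands on the gene's own row (%), for the own row (left) and the sum (right). Points are genes, green for the large and purple for the small subunit; on the left the 30 genes with under 20% on their own row spread from -1.15 to 0.94, and on the right the same genes lie between -0.66 and 0.31.

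Grouping the members by role gave 0 called in each group. The 5S particle proteins Rpl5 and Rpl11, which bind 5S rRNA and inhibit Mdm2 when unassembled, had log2 fold changes of -0.015 and 0.25, and -0.34 and -0.12 when summed with their copies. Of the 4 stalk proteins, which recruit elongation factors, 3 were positive (median 0.17), and 2 in the sums (median 0.083). Of the 8 tunnel exit proteins, which contact the emerging chain, 5 were positive, with a median of 0.35 that became -0.016 in the sums. Of the 8 proteins along the mRNA path, 4 were positive (median -0.058, -0.24 in the sums), and Rps2, at the mRNA entry, had 758 and 1020 in basal and 1510 and 1122 in luminal cells. Summed with its copies Rps2 had 3458 and 3249 in basal and 3707 and 3392 in luminal cells, and the groups overlapped (0.081). Genes of Diamond-Blackfan anaemia, a red cell disorder caused by loss of 1 copy of a ribosomal protein gene, numbered 19 members with a median of -0.015 (-0.099 in the sums) and a range of -0.69 to 0.92. Both luminal libraries lay below both basal ones in 4 of their own rows (21.1%, against 27.3% of all genes) and above in 5 (26.3%, against 23.6%). In their sums these counts were 9 and 2 of 19. The sums of all 80 members gave 40% and 11.25%, against 27.6% and 23.4% of genes.

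Of the variant copies of ribosomal proteins, the 3 that failed the filter were at or near 0. Rpl10l and Rpl39l, retrogenes known from the male germline, were at 0 in all libraries, and Rpl3l, known from muscle, had 1 read in basal replicate 1 and 0 elsewhere. A count of 0 allows up to 3 reads, worth 18.8 and 19.5 units in the basal libraries and 58.1 and 93.5 in the luminal ones, counting error only. Their partners had averages of 1450.0 (Rpl10), 1494 (Rpl39) and 506 (Rpl3). The coding sequences of these pairs were 84.7%, 85.0% and 73.9% identical.

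Other variants were expressed in both cell types. Rpl22l1, a relative of Rpl22 with 70.2% identity, had 1077 and 1572 in basal and 1084 and 1402 in luminal cells, and Rpl22 had 3432 and 4027 in basal and 4008 and 2493 in luminal cells. Rps27l, a p53-responsive relative of Rps27, had 607 and 721 in basal and 600 and 779 in luminal cells. The groups overlapped for all 3 of these genes. Rpl7l1, 56.9% identical to Rpl7, had 582 and 396 in basal and 271 and 405 in luminal cells, and Rpl7, a large subunit protein, had 7853 and 8074 in basal and 5828 and 5111 in luminal cells. Rpl36al, whose symbol falls outside the rule and which is 87.7% identical to Rpl36a, had 889 and 1007 in basal and 1646 and 1652 in luminal cells (0.80 ± 0.24, limma adjusted p = 0.169). Rpl36a itself had 326 and 188 in basal and 174 and 436 in luminal cells and overlapped. Rps4l, annotated as a pseudogene, had 31 and 71 in basal and 136 and 62 in luminal cells, beside Rps4x as given above.

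Within the bounds of 30 tested members, on the same strand, lie 58 annotated snoRNA genes, whose products guide modification of rRNA. The median log2 fold change was -0.025 over these hosts and -0.056 over the other 50 members. Of further ribosomal proteins outside the symbol rule, Fau had 401, 325, 329 and 218, and Rack1 had 13797, 14505, 12566 and 10845 in the order of basal 1, basal 3, luminal 3 and luminal 2. Fau encodes a fusion of a ubiquitin-like domain with a ribosomal protein, and Rack1 is a scaffold on the small subunit head. Both luminal libraries lay below both basal libraries for Rack1, and the groups overlapped for Fau.

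Genes that make or use ribosomes gave 0 limma, edgeR or DESeq2 calls in each of 7 lists. The 6 elongation factors had a median log2 fold change of -0.28, and Eef2, which drives translocation, had 41766 and 41755 in basal and 32916 and 31505 in luminal cells. The 30 initiation factors had a median of -0.31, with both luminal libraries below both basal in 14 (46.7%, against 27.3% of all genes) and above in 4 (13.3%, against 23.6%). Abundant genes as a whole, 3531 with an average of 1000 or more, had a median of -0.33. What level and scaling contribute to the medians of the 7 lists was not tested. Eif4g2, a relative of the eIF4G scaffold, had 30405 and 29224 in basal and 15819 and 19259 in luminal cells (-0.77 ± 0.25, limma adjusted p = 0.186). Eif1ax, which helps the scanning subunit, had 1810 and 1514 in basal and 813 and 1028 in luminal cells (-0.86 ± 0.27, limma adjusted p = 0.184).

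The lists of ribosome production had medians on either side of 0. The 15 genes of RNA polymerase I and its factors, which make rRNA, had a median of 0.22, with 11 positive. The 43 assembly factors found had a median of 0.025, with 22 positive, 2 past the 2-fold threshold upward, against 18.3% of all genes, and 1 downward, against 16.3%. Snu13, a protein of the box C/D snoRNPs, had 1002 and 981 in basal and 407 and 467 in luminal cells (-1.18 ± 0.29, limma adjusted p = 0.104). Efl1, the GTPase that frees the 60S subunit of Eif6, had 144 and 214 in basal and 445 and 374 in luminal cells (1.21 ± 0.47, limma adjusted p = 0.257). The 16 growth control genes had a median of -0.11, and Rps6kb2, an S6 kinase, had 157 and 221 in basal and 503 and 312 in luminal cells (1.08 ± 0.49). Mycn, a Myc family factor named here after its values were seen, had the list's lowest fitted value but rested on 3 and 4 reads in basal and 0 in luminal cells. The limit of 3 reads in the luminal libraries lies above its basal values of 19 and 26, so no fold is given. The 10 snoRNA host genes had a median of -0.20 and the 7 other TOP mRNAs -0.36. Nap1l1, a histone chaperone of the latter list, had 1741 and 2020 in basal and 1104 and 904 in luminal cells (-0.91 ± 0.26, limma adjusted p = 0.144).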

How the data were processed

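RNA was extracted from sorted basal and luminal cells and libraries were made with the Ovation Solo kit. Reads were mapped to GRCm38 with STAR and counted per gene with HTSeq on an Ensembl annotation of that build; Picard is also named in the submitters' processing notes. The deposited signal is a gene count that the authors scaled to a common total and rounded. Tool versions and the treatment of duplicates, strand and reads with several matches are not given in the sources used here. All columns were assigned to a sample, leaving 0 unassigned.

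Whole reads were recovered from the spacing of low values (97.9% to 99.1% on the spacing within 60 reads), which gave 643268 to 3194244 reads per library; 514 genes, none a member, had values on another spacing. Genes were kept when each sample of a group reached 10 and its average 20. limma 3.58.1 was fitted to log2(value + 1) with a trended prior. edgeR 4.0.16 and DESeq2 1.42.0 used recovered reads in R 4.3.3. All tests were two-sided and were tested on simulated data with the same dispersion for every gene. There limma called none of the genes changed 4-fold and edgeR and DESeq2 a minority. Coding sequences were aligned with Biopython 1.88. Sequences and exon lengths came from GENCODE, start windows from RefSeq.

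Members and lists were chosen with earlier results of these data known. Named were the 3 members highest per kb in each subunit, the 5 largest fold changes in each direction at an average of 100 or more, variants with their partners, members failing the filter, and from each list up to 3 genes with the largest fold change. A few genes the rule names are not reported here. Genes outside this rule are marked or were chosen after seeing their values. Alternatives changed the filter, pseudocount, scaling, model and fold threshold, and left out each library.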

Additional observations from a re-analysis of the deposited data

How the results depend on the processing

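No paired analysis was possible because the groups share only 1 replicate number. Of the 15 alternatives, those that left out a library had 1 library in that group and took the spread from the other group only, so their calls are not given. Under each of the others, edgeR and DESeq2 among them, 0 members were called. Calls over all genes then ran from 0 of 27872 (limma with no filter on low values, where a member's 0 says nothing) to 948 of 18737 (edgeR). The sums with pseudogene copies were chosen after seeing the data.

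The count past the 2-fold threshold upward (0) became 7 after rescaling to nuclear protein-coding genes, 1 under quantile normalization and 8 at a threshold of 1.5, and ran from 2 to 4 when 1 library was left out (4 without basal replicate 1). Downward (1), it became 2 with no filter on low values, 6 at 1.5 and 0 with pseudogene copies summed, and ran from 0 (without basal replicate 1) to 3 (without luminal replicate 3). The share of all genes past each threshold was not counted under these alternatives. The moves in both directions therefore cannot be read as being about the members in particular.

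The median log2 fold change (-0.055; large subunit -0.022, small -0.18) was 0.25 (0.29, 0.12) when libraries were rescaled to their nuclear protein-coding signal (0.21 for all genes), and 0.14 (0.18, 0.091) under quantile normalization. Without the members that have a near-identical copy it was -0.29 (-0.38, -0.29) over the 14 members left. Here a member was left out when most of its stretches stood in a single other gene. Abundant genes as a whole, with an average of 1000 or more, had a median of -0.33. With copies summed the members' median was -0.18 (large -0.12). For the large subunit edgeR gave 0.029 and DESeq2 0.036. Leaving out 1 library gave -0.17 to -0.011 for all members, -0.089 to 0.079 for the large and -0.39 to -0.14 for the small subunit, with -0.17 and -0.39 without luminal replicate 3 (0.16 for all genes). The summed level (basal 1.02%, luminal 0.869%) was 1.35% and 1.44% of nuclear protein-coding signal and 2.12% and 1.83% with copies. The cause of these shifts was not tested. Of 32 named genes, 16 changed sign under at least 1 alternative, and 0 were called. The luminal libraries' 643268 and 1036682 reads limit the members of few reads, such as Rpl29, most.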
